A study of Mus musculus with 18 samples.

Results

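AP-1 is a family of dimeric transcription factors assembled from Fos, Jun and ATF proteins, and 7 of its genes were followed here through amphetamine treatment of the mouse striatum. They were picked by name from the 29942 gene names of the deposited table: Fos, Fosb and Fosl2 of the Fos group, Jun, Junb and Jund of the Jun group, and Atf3. All 7 were found, and 6 reached a mean of at least 1 FPKM (mapped fragments corrected for transcript length and library total) over the 18 libraries and were tested; Atf3, at 0.538 FPKM, did not. Each library holds polyA RNA from the striatum of 1 mouse, both hemispheres pooled and cut dorsal to the anterior commissure. The mice were siblings of the 129Sv/Jae S4 strain, matched for age and sex. D-amphetamine, given intraperitoneally in 0.9% saline at 7 mg/kg in total per day, was compared with 0.9% saline alone on days 1, 7 and 21, with 3 mice in each of the 6 groups. Age, sex and the time between the last injection and dissection are not stated in the labels. Whole tissue was used, so each value averages over all cell types of the striatum.

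Fos and Jun proteins pair through leucine zippers and bind the AP-1 site, TGAGTCA, in the control regions of many genes. Fos proteins need a Jun partner to bind stably, whereas Jun proteins can also pair with each other. In striatal projection neurons, dopamine and glutamate act through cAMP and ERK signalling to switch on Fos, Fosb and Junb within minutes, and psychostimulants are a classic trigger. Fosb also gives a shorter spliced product, deltaFosB, a stable protein known to build up in the striatum under repeated drug exposure; a table with 1 value per gene does not separate the spliced forms.

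Shown are the promoters of Fos, Fosb and Junb, the 3 members that passed as higher with amphetamine over the mean of days. That of Jund is added as a member that did not pass. They are shown because cAMP acts on such genes through the CRE (cAMP response element, TGACGTCA). Each run covers the 250 bases before the transcription start, 5′ to 3′ on the gene's strand, from RefSeq on GRCm38.p6 (the C57BL/6J reference, not the animals' strain, and not mm9, the build named in the submitters' processing notes). Capitals mark TGACG, the core shared with the CRE, on either strand, and TATAAA. The regions are chr12:85473640-85473889 (+) for Fos, chr7:19310046-19310295 (−) for Fosb, chr8:84978749-84978998 (−) for Junb and chr8:70697489-70697738 (+) for Jund.
Fos: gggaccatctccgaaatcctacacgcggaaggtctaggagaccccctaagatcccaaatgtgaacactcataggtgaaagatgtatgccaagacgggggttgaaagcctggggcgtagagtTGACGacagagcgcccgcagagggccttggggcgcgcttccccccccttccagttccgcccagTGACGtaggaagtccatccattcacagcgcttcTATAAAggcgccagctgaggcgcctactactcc
Fosb: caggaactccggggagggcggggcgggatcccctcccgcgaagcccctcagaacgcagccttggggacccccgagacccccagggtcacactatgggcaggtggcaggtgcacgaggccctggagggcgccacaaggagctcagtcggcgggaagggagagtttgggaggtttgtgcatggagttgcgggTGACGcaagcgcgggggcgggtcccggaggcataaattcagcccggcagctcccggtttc
Junb: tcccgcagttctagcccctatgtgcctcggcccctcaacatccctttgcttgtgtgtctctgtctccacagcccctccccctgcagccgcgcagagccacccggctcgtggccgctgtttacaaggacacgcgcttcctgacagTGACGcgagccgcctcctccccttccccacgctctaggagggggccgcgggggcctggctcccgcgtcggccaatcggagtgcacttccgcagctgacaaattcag
Jund: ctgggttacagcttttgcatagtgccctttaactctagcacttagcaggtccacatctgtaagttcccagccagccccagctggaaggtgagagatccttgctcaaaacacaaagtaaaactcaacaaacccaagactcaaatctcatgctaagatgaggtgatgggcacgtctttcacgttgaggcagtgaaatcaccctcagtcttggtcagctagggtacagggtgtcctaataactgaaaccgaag

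The entire CRE was in none of the 7 members' windows, against 1.55% of 32851 promoter windows of the same length, searched on both strands. Its core TGACG was in 4 of 7, those of Fos, Fosb, Junb and Atf3, against 17.8% of all windows. Fos held it at bases −129 to −125 and −66 to −62 from the start, Fosb at −60 to −56, Junb at −106 to −102 and Atf3 at −7 to −3. Fos was the 1 member with TATAAA, at −33 to −28, which 12.4% of windows hold. The AP-1 site TGAGTCA (4.46% of windows) and the CArG box bound by serum response factor (1.47%) were in none of the 7. A match here is a run of letters, and an absent match speaks only of this window. Whether the core TGACG goes with a rise under amphetamine was not tested.

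The dissected tissue carried striatal transcripts at high level. The 8 listed projection neuron markers in the table were all above 1 FPKM on average, and their summed level was 3430 to 4230 FPKM with amphetamine and 3380 to 4130 with saline. Sums of all FPKM ran from 533020 to 682270. Low FPKM values move in steps of 1 fragment, which gives depth relative to the deepest library: its mean was 0.811, 0.822 and 0.765 in the amphetamine groups of days 1, 7 and 21, and 0.884, 0.894 and 0.873 in the saline groups of those days. Absolute depth was unknown, but for Fos, Jun and Jund the steps gave whole fragment numbers in all 18 libraries, within 0.05 of a whole number and taking the smallest that worked. These were 89 to 969 fragments for Fos, 331 to 582 for Jun and 1800 to 3286 for Jund, so the counting error alone was at most 10.6% for Fos, 5.5% for Jun and 2.36% for Jund.

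Fos had the largest difference with amphetamine of the tested members. It encodes c-Fos, the prototype immediate-early AP-1 subunit. On day 1 Fos stood at 20.2, 16.1 and 36.8 FPKM in the amphetamine mice, against 6.60, 5.75 and 4.47 FPKM in the saline mice. On day 7 Fos was at 17.1, 23.1 and 20.6 FPKM with amphetamine, against 2.75, 3.69 and 3.86 FPKM with saline. On day 21 it was at 25.7, 17.7 and 17.3 FPKM with amphetamine, against 5.03, 7.38 and 3.12 FPKM with saline. The groups did not overlap on any day, and the lowest amphetamine value of all days, 16.1 FPKM, lay above the highest saline value, 7.38 FPKM. In whole tissue, more cells with Fos and more Fos RNA per cell cannot be told apart, here and for the other members. For days 1, 7 and 21 the amphetamine mean was 4.35, 5.90 and 3.91 times the saline mean. Among all tested genes 7.73%, 5.45% and 4.76% were separated upward in this way on days 1, 7 and 21, and 0.143% on all 3 days; Fos, Fosb and Junb were so on all 3.

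**Figure D1:**
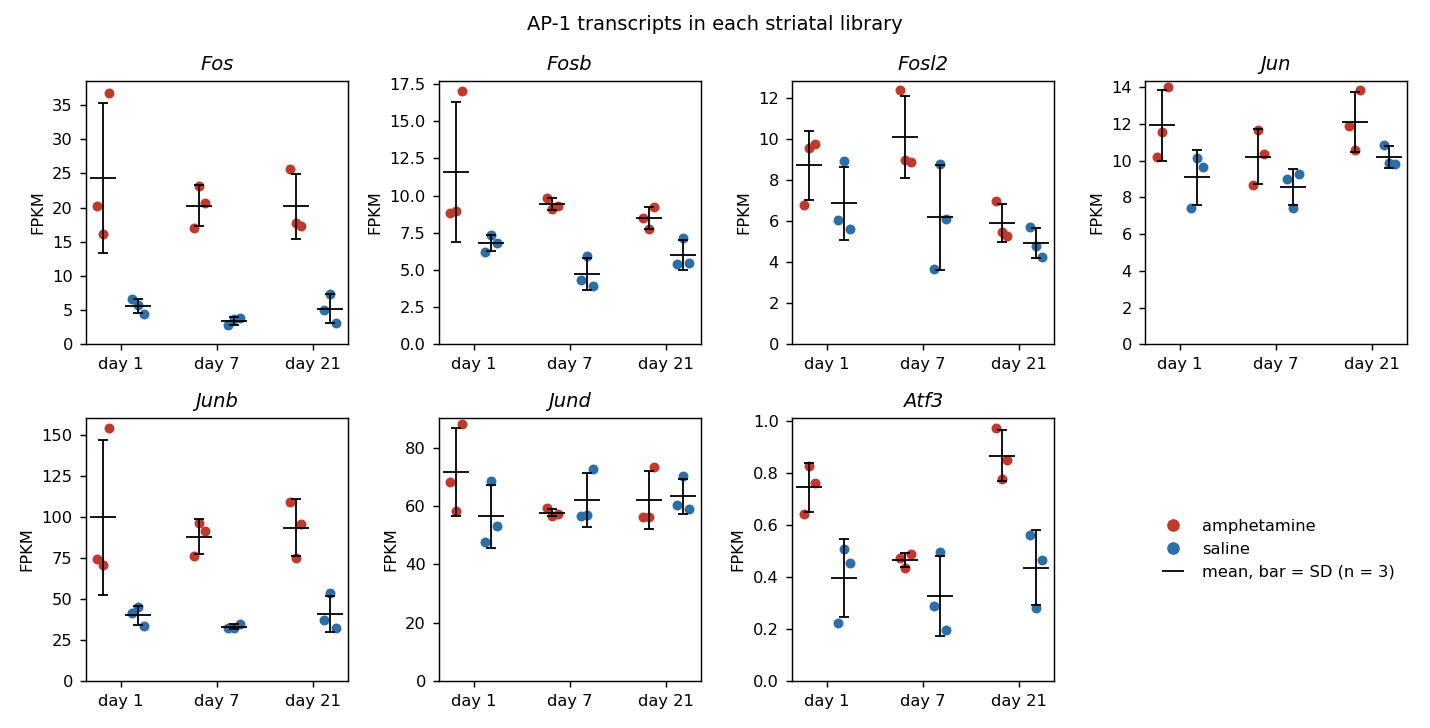
FPKM of the 7 AP-1 genes in each library by day, amphetamine left of saline; each point is 1 mouse, the horizontal line the mean and the bar the SD (n = 3). Fos, Fosb and Junb lie higher with amphetamine on each day without overlap, whereas Jund overlaps on every day.

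Averaged over the 3 days, Fos was 1.98 ± 0.16 (SE) higher with amphetamine on the log2(FPKM + 1) scale (limma adjusted p = 4.91e-05 over 13975 genes). Within days the log2 difference of Fos was 1.87 ± 0.28 on day 1 (limma adjusted p = 0.0525), 2.26 ± 0.28 on day 7 (limma adjusted p = 0.014) and 1.82 ± 0.28 on day 21 (limma adjusted p = 0.0717), so it passed the threshold of 0.05 on day 7 only. Fos was the gene with the smallest unadjusted p on day 7, and ranked 3 on days 1 and 21. In all, 3 of the 6 tested members, Fos, Fosb and Junb, passed as higher with amphetamine over the mean of days. Of all tested genes, 0.122% did so. On days 1 and 21, when 0 members passed, 4 (Fos, Fosb, Jun and Junb) and 3 (Fos, Fosb and Junb) of the 6 had an unadjusted p under 0.05 in limma, where 5.32% and 2.33% of all tested genes were higher with amphetamine at that p on days 1 and 21. The shares of tested genes that passed as higher with amphetamine were 0.00716% on day 1, 0.0215% on day 7 and 0.0% on day 21. Without any one of 5 of the 6 day 7 libraries, amphetamine replicate 1 being the exception, Fos did not pass on that day (0 members).

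Fosb, which encodes FosB and deltaFosB, moved less. It stood at 8.79, 8.96 and 17.03 FPKM with amphetamine and 6.24, 7.37 and 6.81 FPKM with saline on day 1. On day 7 Fosb had 9.86, 9.11 and 9.27 FPKM with amphetamine and 4.34, 5.96 and 3.89 FPKM with saline. On day 21 it was at 8.50, 7.75 and 9.26 FPKM with amphetamine and 5.37, 7.13 and 5.49 FPKM with saline. Amphetamine values were thus the higher ones on each day, close together on day 7 (9.42 ± 0.39 FPKM, SD, n = 3) and with replicate 3 far above the others on day 1. Averaged over the 3 days, the log2 value of Fosb was 0.65 ± 0.11 (SE) higher with amphetamine (limma adjusted p = 0.0461). This call was close to the threshold: it held in 5 of the 18 fits that each left out 1 library, those without any of the 3 amphetamine mice of day 1, saline replicate 2 of day 7 or saline replicate 2 of day 21, and the adjusted p over the alternatives ran from 0.00608 to 0.256 in limma. The highest came with relative depth as a term, an alternative added after seeing the data; the group means of that depth, as a share of the deepest library, were 0.765 to 0.822 with amphetamine and 0.873 to 0.894 with saline. In that fit Fos and Junb passed (limma adjusted p = 0.000609 and 0.0197). The within-day differences of Fosb, 0.63 ± 0.19, 0.88 ± 0.19 and 0.45 ± 0.19 on days 1, 7 and 21, did not pass (limma adjusted p = 0.655, 0.362 and 0.869).

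Fosl2, which encodes Fra-2, a Fos-related protein without the strong activation domain of c-Fos, did not pass in any contrast. On day 7 it stood at 12.4, 8.97 and 8.89 FPKM with amphetamine and 3.66, 8.78 and 6.11 FPKM with saline. These groups did not overlap, though saline replicate 2 lay just under the lowest amphetamine value, and the log2 difference was 0.68 ± 0.24 (limma adjusted p = 0.832). It was 0.40 without saline replicate 1 of that day and 0.93 without saline replicate 2. The values overlapped on day 1 (6.79 to 9.77 FPKM with amphetamine, 5.63 to 8.91 with saline) and on day 21 (5.26 to 6.98 with amphetamine, 4.27 to 5.73 with saline). Over the mean of days the log2 difference of Fosl2 was 0.40 ± 0.14 (limma adjusted p = 0.714). All 3 amphetamine values of Fosl2 on day 21 lay below all 3 of day 7, as for 6.47% of all tested genes, with a log2 difference of −0.68 ± 0.24 (day 21 minus day 7, limma adjusted p = 0.368, unadjusted p = 0.0125).

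Junb, whose protein is a partner of Fos proteins and a weaker activator than c-Jun, was the most abundant member under amphetamine. On day 1 Junb stood at 74.2, 70.8 and 154 FPKM in amphetamine mice and 41.6, 45.2 and 33.8 FPKM in saline mice. On day 7 it was at 76.2, 96.5 and 91.6 FPKM with amphetamine and 32.3, 32.3 and 34.9 FPKM with saline. On day 21 it was at 109, 74.9 and 96.1 FPKM with amphetamine and 36.9, 53.4 and 32.3 FPKM with saline. Every amphetamine value of any day was above every saline value of any day, the nearest being 70.8 FPKM with amphetamine and 53.4 FPKM with saline. The ratio of Junb means was 2.48, 2.66 and 2.29 on days 1, 7 and 21. Averaged over the 3 days, the log2 value of Junb was 1.26 ± 0.15 (SE) higher with amphetamine (limma adjusted p = 0.00149). This difference passed under all 28 alternatives. The within-day differences were 1.21, 1.38 and 1.19 (SE 0.25 each) and did not pass (limma adjusted p = 0.323, 0.168 and 0.46).

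Jun encodes c-Jun, the AP-1 subunit phosphorylated by JNK kinases. Over the mean of days Jun was 0.27 ± 0.08 higher with amphetamine on the log2 scale and did not pass (limma adjusted p = 0.587, unadjusted p = 0.00449). On day 1 Jun was at 10.2, 11.5 and 14.01 FPKM with amphetamine and 7.40, 10.2 and 9.68 FPKM with saline, the lowest amphetamine value only just above the highest saline value. Jun overlapped on day 7, at 8.66 to 11.7 FPKM with amphetamine and 7.43 to 9.26 with saline, and on day 21, at 10.6 to 13.8 FPKM with amphetamine and 9.81 to 10.9 with saline. Its log2 difference lay between 0.20 and 0.30 over the mean of days in all 28 alternatives and passed in none of them.

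Jund, which encodes JunD, a subunit that many resting cells already contain, overlapped between groups on each day. Jund stood at 68.3, 58.4 and 88.2 FPKM with amphetamine and 47.6, 68.5 and 53.3 FPKM with saline on day 1. On day 7 it was at 59.2, 56.8 and 57.4 FPKM with amphetamine and 56.5, 56.9 and 72.7 FPKM with saline. On day 21 it was at 56.1, 56.3 and 73.5 FPKM with amphetamine and 60.5, 70.3 and 59.1 FPKM with saline. No day placed the groups apart, and the log2 difference was 0.33 ± 0.16, −0.09 ± 0.16 and −0.04 ± 0.16 on days 1, 7 and 21 and 0.07 ± 0.09 over the days, with limma adjusted p = 0.674, 1, 0.985 and 0.999. Leaving out amphetamine replicate 3 of day 1 gave a day 1 value of 0.18, and leaving out saline replicate 2 gave 0.48. Leaving out single libraries turned the sign of the day 7 and day 21 values, and depth as a term that of the mean.

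Atf3, which encodes a stress- and activity-induced factor that forms dimers with Jun proteins, was low throughout. On day 1 Atf3 was at 0.643, 0.827 and 0.762 FPKM with amphetamine and 0.224, 0.508 and 0.452 FPKM with saline. On day 7 it was at 0.471, 0.435 and 0.486 FPKM with amphetamine and 0.286, 0.495 and 0.195 FPKM with saline. On day 21 it was at 0.971, 0.777 and 0.847 FPKM with amphetamine and 0.561, 0.280 and 0.465 FPKM with saline. The groups lay apart on days 1 and 21 and overlapped on day 7. How many genes this low lay apart was not computed. The Atf3 mean with amphetamine was 1.88, 1.43 and 1.99 times the saline mean on days 1, 7 and 21. In the fit without a filter on low values, Atf3 was 0.29 higher with amphetamine on the log2(FPKM + 1) scale over the mean of days. It did not pass (limma adjusted p = 0.212, unadjusted p = 0.000198). Fosb did not pass in that fit either (limma adjusted p = 0.128), whereas Fos and Junb did (limma adjusted p = 0.000734 and 0.0115). At the level of Atf3 the added 1 compresses the difference.

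**Figure D2:**
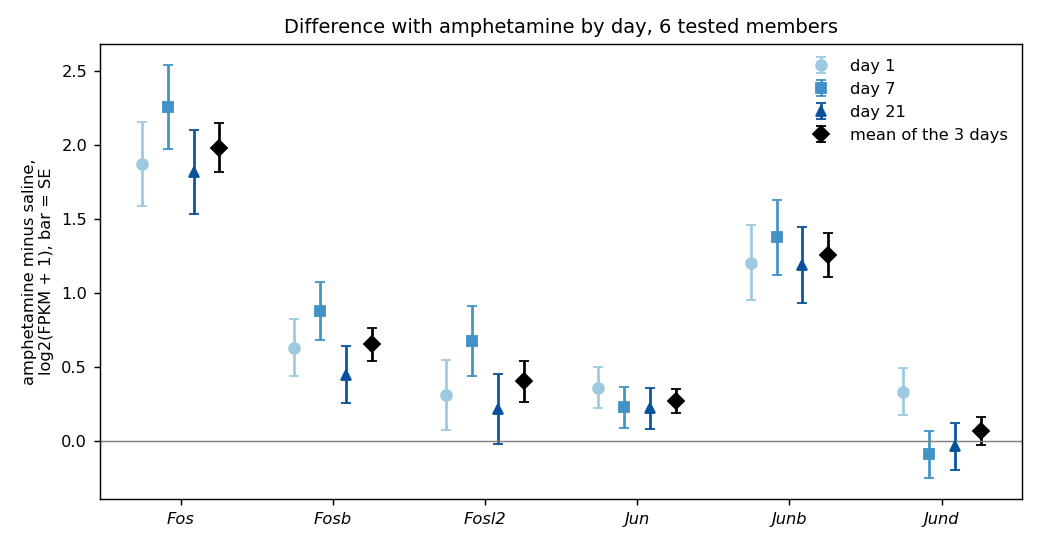
Amphetamine minus saline on the log2(FPKM + 1) scale for the 6 tested members (points; bars are limma's SE), for each day and for the mean of the 3 days. Fos (1.98) and Junb (1.26) have the largest means of the 6, and Jund (0.07) lies near 0.

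FPKM is scaled to transcript length, so levels can be set beside each other, though the quantifier and the annotation were not stated. In amphetamine libraries the order by median FPKM was Junb (91.6), Jund (58.4), Fos (20.2), Jun (11.5), Fosb (9.11), Fosl2 (8.89) and Atf3 (0.762). In saline libraries it was Jund (59.1), Junb (34.9), Jun (9.68), Fosb (5.96), Fosl2 (5.73), Fos (4.47) and Atf3 (0.452). Junb was above Jund in 9 of 9 amphetamine libraries, while Jund was above Junb in 9 of 9 saline libraries. Neighbours that did not differ beyond their spread were Jun, Fosb and Fosl2 with amphetamine, where Jun exceeded Fosb in 7 of 9 libraries and Fosb exceeded Fosl2 in 7 of 9. With saline they were Fosb, Fosl2 and Fos, where Fosb exceeded Fosl2 in 5 of 9 libraries and Fosl2 exceeded Fos in 7 of 9. Fos thus stood in the third place with amphetamine, apart from both neighbours in all 9 libraries, and in the sixth place with saline.

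The make-up of each family shifted with these levels. The Fos group (Fos, Fosb and Fosl2) summed to 30.9 to 63.6 FPKM with amphetamine, median 38.8, and to 10.8 to 22.0 FPKM with saline, median 16.9. Fos made up 43.4% to 62.4% of that sum with amphetamine and 20.01% to 38.2% with saline. Fosb made up 20.6% to 29.1% with amphetamine and 28.0% to 42.6% with saline, ranges that barely overlapped although the level of Fosb itself was higher with amphetamine. The Jun group summed to 141 to 257 FPKM with amphetamine and 96.6 to 134 FPKM with saline. Within it Junb made up 48.6% to 61.6% with amphetamine and 29.9% to 43.0% with saline, and Jund 31.6% to 44.7% with amphetamine and 49.3% to 62.2% with saline. For every 100 FPKM of Jun group transcripts there were 17.3 to 27.3 FPKM of Fos group transcripts with amphetamine and 10.99 to 19.5 with saline. The summed FPKM of the Jun group was thus above that of the Fos group in all 18 libraries, and protein was not measured. These sums describe the chosen members and were not tested.

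**Figure D3:**
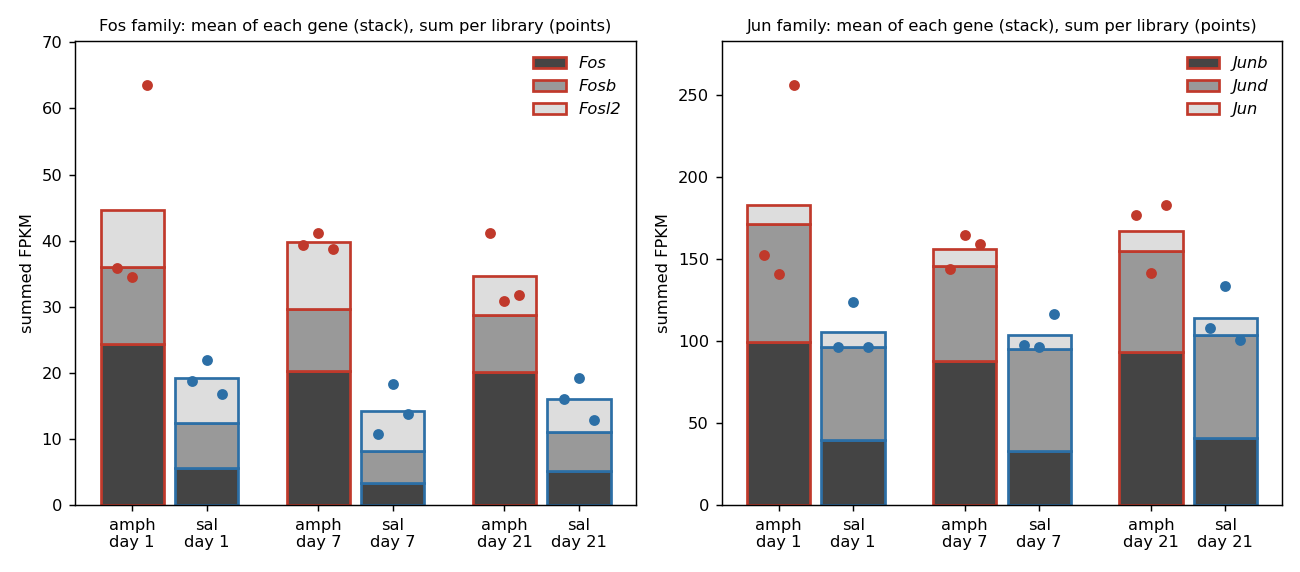
Summed FPKM of the Fos group (left) and the Jun group (right) by day, amphetamine (red outline) left of saline (blue outline); stacked bars are group means of each gene and points the sum in each library. Fos and Junb account for most of the height difference, and the median sum is 38.8 FPKM with amphetamine and 16.9 with saline for the Fos group, and 159 FPKM with amphetamine and 101 with saline for the Jun group.

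Whether the amphetamine difference itself varied with the day was tested in the same model. None of the 6 members passed the treatment by day interaction, and neither did any tested gene (0.0%; limma gave 873 genes, 0 of them members, an unadjusted p under 0.05). The unadjusted interaction p of the members in limma ran from 0.162 for Jund to 0.849 for Junb. Without amphetamine replicate 3 of day 1, the unadjusted p of Fosb in limma was 0.0237, against 0.317 with all libraries. Without saline replicate 2 of day 1, that of Jund in limma was 0.045, against 0.162. Neither passed after adjustment (limma adjusted p = 0.944 and 0.57). For Fos the difference of day 7 exceeded that of day 1 by 0.39 ± 0.40 (SE) on the log2 scale, and the day 21 difference minus that of day 1 was −0.05 ± 0.40. For Fosb the day 21 difference relative to day 7 was −0.43 ± 0.27 and for Fosl2 −0.46 ± 0.33 on the log2 scale. With these errors, changes of the response between days as large as the values themselves were not detectable.

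Levels within each treatment gave no call for a member between days. Under amphetamine, Fos differed by −0.18 ± 0.28 between days 7 and 1 (limma adjusted p = 0.852) and −0.02 ± 0.28 between days 21 and 7 (limma adjusted p = 0.999) on the log2 scale. Junb differed by −0.09 ± 0.25 and 0.07 ± 0.25 over the same steps (limma adjusted p = 0.928 and 0.96). Under saline, the log2 difference of day 7 minus day 1 was −0.57 ± 0.28 for Fos and −0.46 ± 0.19 for Fosb (limma adjusted p = 0.846 and 0.773). All 3 saline Fos values and all 3 saline Fosb values of day 7 were below those of day 1, as were the values of 5.24% of all tested genes. Among all tested genes 0.0% passed between the amphetamine days, and 0.00716% passed between saline days 7 and 1. Anything else that differed between the days of dissection cannot be told apart from the day.

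Some members differed together between the animals of 1 group. Amphetamine replicate 3 of day 1 had the highest value of its group for 6 of the 7 members, and saline replicate 2 of day 1 likewise for 6 of 7. Both also had the largest library-wide scaling factor (median of ratios) of their group. It was 1.0517 against 1.0292 and 1.0105 with amphetamine, and 1.0085 against 0.9661 and 1.0047 with saline. The share of all tested genes that were highest in these libraries was not computed. Without that amphetamine library the day 1 log2 difference was 1.54 for Fos, 0.85 for Junb and 0.34 for Fosb, against 1.87, 1.21 and 0.63 with it. With its removal the SE of the day 7 difference was 0.23 for Fos, 0.12 for Fosb and 0.17 for Junb, against 0.28, 0.19 and 0.25 with it, and 3 members (Fos, Fosb and Junb) then passed on day 7 and 2 (Fos and Junb) on day 21. Over the 18 libraries, deviations from the group mean of log2(FPKM + 1) were most alike for Fos and Junb among 15 member pairs (Pearson r = 0.904, Spearman rho = 0.864; r = 0.863 without the 2 libraries farthest from the median of Fos). For Fosb and Junb r was 0.752 (rho = 0.591; 0.661 without the 2 farthest), and for Fos and Jun 0.231 (rho = 0.17; 0.021 without the 2 farthest). These values are descriptions, since the 2 genes of a pair share the library and its depth.

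**Figure D4:**
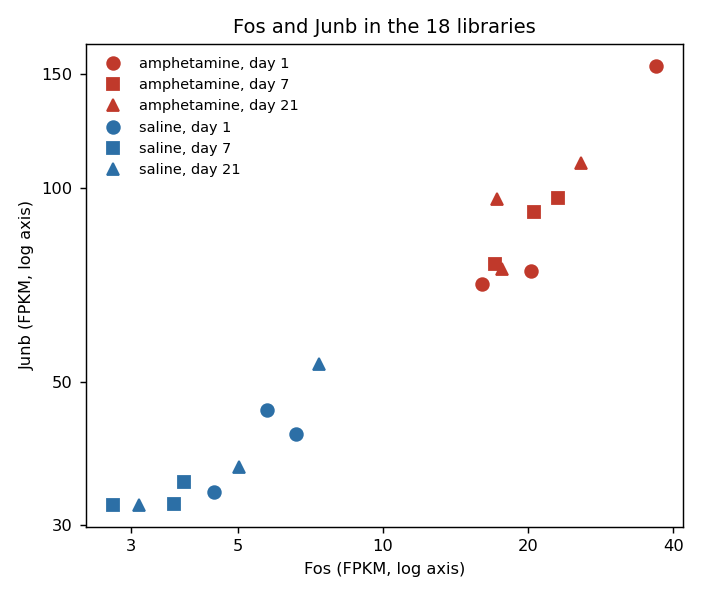
Fos against Junb in each of the 18 libraries (FPKM, both axes logarithmic), red for amphetamine and blue for saline, with a symbol per day. The 9 amphetamine libraries lie above and to the right of the 9 saline libraries (Fos of at least 16.1 FPKM with amphetamine and at most 7.38 with saline), and amphetamine replicate 3 of day 1 is at the upper end of both axes.

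Outside the family, the tested genes most like Fos over the 18 libraries of log2(FPKM + 1) were AK006051 (Pearson r = 0.973), a transcript without a matching gene symbol, Btg2 (0.967), Ppp1r15a (0.965), Dusp1 (0.963) and Arc (0.956). Junb was most like Arc (0.972) and Dusp1 (0.969), and Fosb most like Egr2 (0.923) and Shisa2 (0.894). Fosl2 was most like Nr4a3 (0.921) and Per1 (0.868). Jun was most like Dhcr7 (0.833) and Tssc4 (0.827), and Jund most like Dbn1 (0.945) and Fbxo2 (0.941). The lists of Fos and Junb share Dusp1 and Arc, and no other gene named here stands beside more than 1 member. The libraries fall into 2 treatment groups for Fos, Fosb and Junb, so these values order likeness and are not relations within a group.

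Other genes of the pathway, from lists chosen by their roles, gave no call. Of 27 listed dimer partners and relatives 20 were tested. Over the mean of days 10 were higher with amphetamine and 0 passed in either direction. Their median log2 difference was 0.011, where the median of all tested genes was 0.008. The smallest unadjusted p values belonged to Atf1, a CREB relative, at 4.57 to 5.95 FPKM with amphetamine and 4.77 to 6.05 with saline (log2 difference −0.08 ± 0.04, limma adjusted p = 0.985), and Mafk, a small Maf protein gene, at 2.12 to 3.56 FPKM with amphetamine and 1.81 to 3.03 with saline (0.14 ± 0.08, limma adjusted p = 0.999). Of 26 kinases and factors that act on AP-1 genes or proteins all 26 were tested, 13 were higher, the median log2 difference was −0.0003 and 0 passed. Rps6ka1, a ribosomal S6 kinase gene, was at 2.86 to 5.89 FPKM with amphetamine and 4.52 to 8.19 with saline (−0.36 ± 0.12, limma adjusted p = 0.759), and its relative Rps6ka2 at 7.37 to 10.7 FPKM with amphetamine and 7.61 to 9.22 with saline (0.09 ± 0.04, limma adjusted p = 0.939). Of 14 reported targets of AP-1 or FosB 9 were tested, 6 were higher, the median was 0.03 and 0 passed; the count of higher genes is near the 55.6% of all tested genes. Pdyn, the dynorphin precursor gene, was at 52.0 to 74.7 FPKM with amphetamine and 32.1 to 67.5 with saline (0.32 ± 0.07, limma adjusted p = 0.265). Its log2 difference was below 0 on day 1 (−0.19) and above 0 on days 7 and 21 (0.63 and 0.52). Hmox1, the haem oxygenase gene, was at 1.15 to 2.83 FPKM with amphetamine and 1.57 to 2.26 with saline (0.11 ± 0.08, limma adjusted p = 0.999). On day 21 the log2 difference of Atf1 (0.02), Rps6ka2 (−0.08) and Hmox1 (−0.12) had the sign opposite to their mean. At an unadjusted p under 0.05 in limma the 3 lists held 0, 1 and 1 genes in the order given, out of 749 among all tested genes.

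Markers of neighbouring tissue, of blood and of other cell types varied beside these results. The 5 listed choroid plexus markers, of which 3 were above 1 FPKM on average and Folr1 and Kcnj13 below, summed to 26.6 to 102 FPKM with amphetamine and 10.7 to 19.9 with saline on day 1. On days 7 and 21 their sums overlapped, at 8.63 to 31.3 FPKM with amphetamine and 7.84 to 15.6 with saline on day 7, and 12.2 to 28.5 FPKM with amphetamine and 10.6 to 38.4 with saline on day 21. The 4 ependymal markers, 3 above 1 FPKM on average (Tmem212 below), summed to 2.07 to 14.3 FPKM, median 6.42, with amphetamine and 1.15 to 12.7, median 2.90, with saline. The 3 blood markers in the table, all above 1 FPKM on average, summed to 152 to 262 FPKM with amphetamine and 91.8 to 147 with saline on day 21, without overlap. Their sums overlapped on day 1, at 108 to 154 FPKM with amphetamine and 78.8 to 121 with saline. They also overlapped on day 7, at 143 to 348 FPKM with amphetamine and 115 to 888 with saline. Over the mean of days 1 of the 3 blood markers was higher with amphetamine. The 4 astrocyte markers, all above 1 FPKM, summed to 174 to 196 FPKM with amphetamine and 167 to 173 with saline on day 1, just apart, and overlapped on days 7 and 21. The oligodendrocyte, microglia and endothelium sums overlapped on each day, although 4 of 4 oligodendrocyte markers had a log2 difference above 0 over the mean of days; 0 markers of the lists given here passed over the mean of days. The part of these tissues and cell types in the AP-1 values was not tested.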

How the data were processed

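PolyA RNA of 18 striatal samples was sequenced, and 1 deposited table of FPKM with 18 sample columns, matched by the number in the sample descriptions, was used (0 columns of other samples). The FPKM values were made by the authors. Bowtie and mm9 are named in the submitters' processing notes. The version of Bowtie, the quantifier, the annotation and any use of strand were not stated there. Whether overlapping or antisense genes were told apart is therefore unknown.

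FPKM are not counts, so log2(FPKM + 1) was tested for 13975 genes with a mean of at least 1 FPKM, using limma (version 3.58.1, R version 4.3.3) with 6 group means fitted to the 18 libraries and the trend option of eBayes (12 residual and 2.26 prior degrees of freedom), two-sided, Benjamini-Hochberg adjusted, threshold 0.05. The scale understates changes of low genes. Replicates are separate mice. Members, gene lists and tests were chosen with earlier results of these data known. Named genes were the 7 members, the 2 smallest p values per pathway list over the mean of days, and the 5 (Fos) or 2 (others) most correlated tested genes. One marker list is not reported here. Promoters were matched by symbol for 7 of 7 members. Alternatives were a pseudocount of 0.1, no filter, a filter of 5 FPKM, median-of-ratios and quantile scaling, robust moderation, array weights, the replicate block, the leading 2 digits of the label number as a term, fits by day and leaving out each library; relative depth as a term and the fragment numbers were added after seeing the data. Scripts were tested on simulated data. Figures used matplotlib (version 3.10.9, Python version 3.11.15).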

Additional observations from a re-analysis of the deposited data

How the results depend on the processing

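Over the mean of the 3 days, Fos and Junb passed under all 28 alternatives, with log2 differences of 1.87 to 2.19 for Fos and 1.14 to 1.33 for Junb. Fosb passed under 11. The count of members that passed as higher with amphetamine was 2 or 3 throughout (2 to 3 when 1 library was left out). The day 1 count of 0 became 1 (Fos) with a filter of 5 FPKM and with array weights, and ran from 0 to 1 when 1 library was left out. The day 7 count of 1 became 0 with no filter on low values and 2 (Fos and Junb) in the fit to the 6 libraries of that day, and ran from 0 to 3 when 1 library was left out. The day 21 count of 0 became 1 (Fos) with a filter of 5 FPKM, with quantile normalization and with array weights, and ran from 0 to 2 when 1 library was left out. The interaction count stayed at 0 in all settings. The Jund log2 difference changed sign: leaving out 1 library gave −0.153 to 0.03 on day 7 (0.0255 without saline replicate 3) and −0.165 to 0.04 on day 21 (0.0249 and 0.0272 without amphetamine replicates 2 and 1, 0.0394 without saline replicate 2), and relative depth as a term gave −0.015 over the mean of days. The cause was not tested. No-filter fits test more genes and leave-one-out fits have fewer samples. Of the log2 differences of single members 647 kept direction and side of the threshold, 24 no longer passed, 14 newly passed and 5 changed sign.

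The labels do not state whether same-numbered mice were paired. The label numbers of most same-numbered amphetamine and saline libraries of a day lie close together. Deviations of same-numbered amphetamine and saline libraries of a day correlated with −0.085 to 0.145 across genes. Of the amphetamine libraries, 4 of 9 were most like the saline library of their own number. The replicate block joined libraries of 1 replicate number over all days, so it cannot speak to pairing within a day, which was not fitted. With the replicate block the day 7 count of members was 0 and Fosb did not pass over the mean of days (limma adjusted p = 0.0966), while Fos and Junb did (limma adjusted p = 0.000442 and 0.00817); genes called over the mean of days numbered 8 with the block and 17 without.

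Fragment numbers were not recovered for Fosb, Fosl2, Junb and Atf3, so their counting error is unknown. With 3 mice per group a difference within 1 day had to be large to pass.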
